A study of Mus musculus with 20 samples.

Results

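Male germ cells of mice at postnatal day 2 (d2) were compared with those at embryonic day 18.5 (e18.5), both from animals labelled heterozygous for Tex15 (Tex15+/-, written ht). The comparison used all libraries with these labels, 4 of ht d2 and 3 of ht e18.5, which are 7 of the 20 RNA sequencing libraries in the 6 groups of the study. The other groups are ht cells at embryonic day 16.5 and knockout (Tex15-/-, ko) cells at the same 3 ages. Tex15 is needed in mice for meiosis and for the silencing of transposons in male germ cells. Per the labels, the animals were of a mixed strain and the cells were sorted by green fluorescence. The gene that drives the fluorescence is not named in the sources used here. RNA of the sorted cells was amplified before sequencing. The series text calls the replicates biological, but no label ties a library to an animal, and the p-values therefore cover library-to-library spread, part of which may be technical. All cells of the comparison carry 1 working copy of Tex15, and no wild-type library was analysed here.

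Male germ cells of the late fetal testis, called prospermatogonia, rest in mitotic arrest while their genome regains DNA methylation. Part of that methylation is laid down at transposons with the help of PIWI-interacting RNAs (piRNAs), which guide silencing to matching sequences. Around birth the cells resume division and begin to turn into spermatogonia, of which the stem cells depend on glial cell line-derived neurotrophic factor (GDNF) from Sertoli cells, sensed through RET and its co-receptor GFRA1. The pair of ages lies on either side of that switch.

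Of 17043 genes tested, 8402 (49.3%) passed an adjusted p of 0.05 with edgeR's quasi-likelihood test, 4135 higher at d2 (24.3%) and 4267 lower (25.0%). In 7834 genes (46.0%) the change passed and the libraries of the ages did not overlap. The median log2 fold change over all genes tested was -0.02. The genes that rose included receptors and targets of GDNF and fibroblast growth factor (FGF) signalling, immediate early genes, replication and mitosis genes, nuclear genes of oxidative phosphorylation and sterol synthesis genes. Those that fell included Dnmt3l and Dnmt3a, most of the piRNA genes that moved, and Nanog and Utf1, 2 of 6 pluripotency and primordial germ cell genes that fell, while 8 of that list rose. Larger changes were more often decreases: of the called genes that changed more than 4-fold, 573 were higher and 1592 lower at d2. Since 49.3% of all genes passed, the count of members called in a list is read below against 24.3% higher and 25.0% lower. That reading is a description only, since the lists were chosen with earlier results of these data known. The shares over all genes also varied with the level and length of a gene, as given under other observations, and the lists were not matched for these. Values are in CPM, gene counts scaled to a common library total with TMM factors, and they are not per gene length, so levels are compared between ages and not between genes.

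Genes and repeats together held 16.8 to 24.8 M (mega) counts per library at d2, against 26.3 to 31.5 M at e18.5. Counts in genes came to 8.04 to 13.9 M at d2 and 10.2 to 14 M at e18.5. Library 4 of d2 stood apart: across genes its log2 CPM correlated with the e18.5 libraries at 0.863 to 0.885, against 0.793 to 0.854 for d2 libraries 1 to 3. Without that library 9131 genes passed, 4368 higher and 4763 lower. Without it the counts of the lists described below were, higher and lower, 14 and 4 for stem cell genes, 16 and 1 for immediate early genes, 34 and 5 for ribosomal proteins, 49 and 1 for oxidative phosphorylation, 16 and 0 for sterol genes, 12 and 2 for p53 genes, 4 and 10 for the piRNA pathway and 4 and 5 for DNA methylation. The ages also came from separate count tables with different gene definitions. The tables shared 23853 gene symbols, and only these were used, while 488 symbols stood in the d2 table alone and 642 in the e18.5 table alone. Age, gene table and any batch cannot be told apart. Of the common symbols tested, 76 overlap on the genome with a symbol of 1 table, and 23 of these (30.3%) differed more than 4-fold, beside 13.2% of all genes tested.

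Several of the largest single-gene changes lie among those symbols. Cmtr1, a messenger RNA cap methyltransferase gene, had 105, 145, 133 and 100.02 CPM in d2 libraries and 1.6, 0.997 and 1.22 CPM in e18.5 libraries, and the e18.5 table alone lists the overlapping symbol Rnf8-cmtr1. Adnp, a chromatin regulator gene, had 413, 428, 413 and 436 CPM at d2 and 6.31, 7.56 and 8.31 CPM at e18.5, beside Dpm1-adnp in the e18.5 table. Mia2 had 1.39, 2.21, 2.78 and 1.31 CPM at d2 and 185, 156 and 159 CPM at e18.5, and the d2 table alone lists its overlapping symbol Ctage5. The groups are far apart in all these genes. Summed over the ht libraries, Ctage5 had 6116 counts in the d2 table. Rnf8-cmtr1 had 39 and Dpm1-adnp 0 in the e18.5 table. How reads that fall on both symbols of a pair were counted is not given in the sources used here. Without that, a change in expression and a change in definition cannot be told apart, and neither was tested. Scamp3 (log2 fold change 6.19) belongs to the same class through Clk2-scamp3, which had 0 counts in the ht e18.5 libraries. Without all overlapping symbols 8356 genes passed, 4109 higher and 4247 lower.

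Tex15 itself was present in every library of the comparison. It had 934, 879, 1062 and 647 CPM at d2 and 1368, 1340.3 and 1896 CPM at e18.5. Every d2 library lay below every e18.5 library, and the log2 fold change was -0.80 (SE 0.16, adjusted p = 0.001, edgeR). In the fit of all 20 libraries Tex15 no longer passed the threshold. The germ cell markers Ddx4, an RNA helicase gene, and Dazl, an RNA-binding protein gene, were high at both ages. Ddx4 averaged 501 ± 80.3 CPM at d2 and 417 ± 6.47 CPM at e18.5 (SD, n = 4 and 3), and Dazl 1668 ± 132 and 1533 ± 528 CPM, and neither passed the test (adjusted p = 0.115 and 0.599, edgeR). Of 7 germ cell markers tested, 0 were higher and 3 lower.

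Markers of other testis cells were low but present, and they moved between the ages. The summed level of 13 Sertoli cell markers was 114 to 135 CPM at d2 and 85.6 to 105 CPM at e18.5, with 4 higher, among them Sox9 (1.28 on the log2 scale) and Amh (3.65), and 1 lower, Gdnf. Amh was near the floor, with means of 2.20 CPM at d2 and 0.162 CPM at e18.5. It could pass the filter on low counts through d2 alone, so the size of its change is uncertain. The 17 stroma markers summed to 319 to 437 CPM at d2 and 511 to 518 CPM at e18.5, with 1 higher and 7 lower, or 4 lower without any 1 of the e18.5 libraries and 3 when tested against a fold of 1.5. The 12 endothelium markers summed to 180.0 to 238 CPM at d2 and 278 to 312 CPM at e18.5, with 1 higher and 4 lower. Leydig cell markers summed to 20.4 to 44.7 CPM at d2 and 41.3 to 45.4 CPM at e18.5, the highest d2 value being that of library 4, with 1 of 6 higher (2 without e18.5 library 3) and 3 lower. Macrophage and white blood cell markers summed to 125 to 133 CPM at d2 and 63.9 to 96.8 CPM at e18.5. Of 7 tested, 2 were higher (1 against a fold of 1.5) and 2 lower. Fcer1g rose, with means of 66.6 CPM at d2 and 36.3 CPM at e18.5, as did Cd68 (20.4 and 5.77 CPM). Ptprc (1.17 CPM at d2 and 4.46 CPM at e18.5) and Adgre1 (0.341 and 4.10 CPM) fell. The 3 red blood cell markers tested, of which 3 were lower, summed to 5.25 to 9.41 CPM at d2 and 20.9 to 23.3 CPM at e18.5. The globin genes Hba-a1, Hba-a2, Hbb-b1, Hbb-b2 and Hbb-bh1 and the Leydig hormone gene Insl3 were listed at 0 in all 7 libraries, and the macrophage genes C1qa, C1qb and C1qc in all d2 libraries. Genes that most cells use, such as Hmgcs1 of sterol synthesis and Ndufs5 of respiratory complex I, were also listed at 0 in all 7, so a 0 in these tables does not show that a gene is not expressed. The part of these cells in the gene changes below was not tested. In such bulk samples fewer cells of a type and less RNA per cell cannot be told apart.

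**Figure D1:**
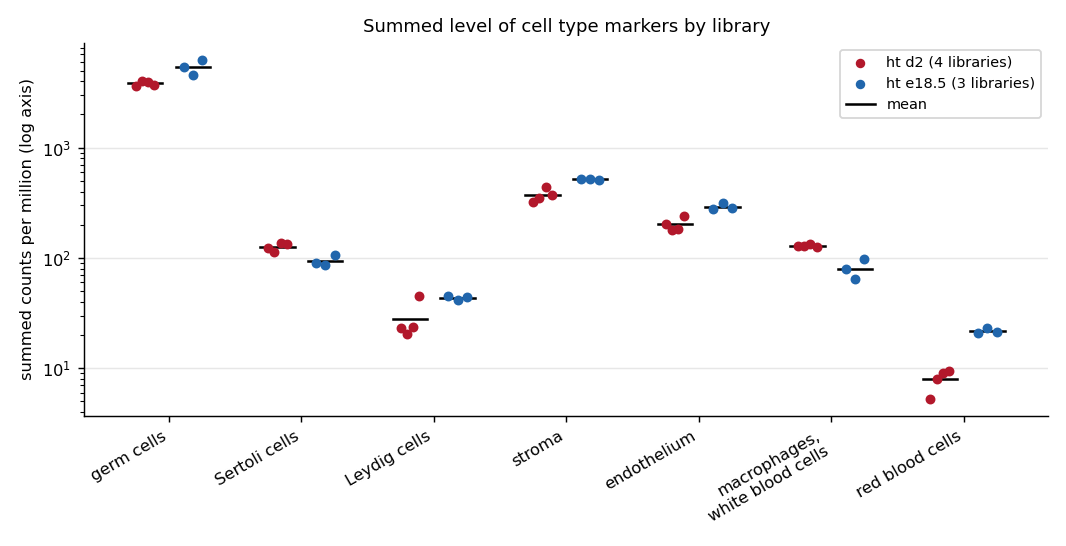
Summed CPM (log axis) of the marker list of each cell type in each ht library, d2 in red left of e18.5 in blue, with bars at the means. Germ cell markers sum to 3661 to 3994 CPM at d2 and 4591 to 6285 CPM at e18.5. The Sertoli, macrophage and white blood cell sums are higher at d2 in all 4 libraries. The stroma, endothelium and red blood cell sums are lower. Fcer1g alone averages 66.6 of the 128.5 CPM of the macrophage and white blood cell sum at d2, while Ptprc and Adgre1 fell.

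The receptor of GDNF and its downstream transcription factors were among the largest increases. Gfra1, the co-receptor, had 224, 293, 290.3 and 232 CPM in the d2 libraries and 10.4, 11 and 12.2 CPM in the e18.5 libraries. Ret, the signalling receptor, had 587, 621, 555 and 395 CPM at d2 and 35.3, 34.3 and 33.9 CPM at e18.5. The groups did not overlap for either gene, and the log2 fold changes were 4.54 for Gfra1 (SE 0.16, adjusted p = 9.23e-11, edgeR) and 3.97 for Ret (SE 0.15, adjusted p = 4e-10, edgeR). Etv5, a transcription factor gene known as a GDNF and FGF target in spermatogonial stem cells, had 240.2, 294, 266 and 229 CPM at d2 and 10.2, 11.5 and 12.3 CPM at e18.5. Lhx1, another target of GDNF in cultured stem cells, had 58.7, 85.4, 62.6 and 31.7 CPM at d2 and 2.61, 1.66 and 1.62 CPM at e18.5. Library 4 had the lowest Ret, Etv5 and Lhx1 levels of d2, and each of its values still lay above every e18.5 library. Id4, a marker of the stem cell state, rose with a log2 fold change of 3.91, Zbtb16, the transcription factor gene also called PLZF, with 2.77, Pou3f1 with 4.49 and Bcl6b with 2.36.

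Across the whole list of 25 stem and progenitor genes tested, 14 were higher and 6 lower, with a median log2 fold change of 1.39 beside -0.02 for all genes. The 6 that fell, of which 2 passed against a fold of 1.5, were Adgra3, Tspan8, Taf4b, Foxo1, Shisa6 and Rhox10. Adgra3, an adhesion receptor gene known as a stem cell marker under the name Gpr125, moved opposite to Gfra1 and Ret, with 7.6, 13, 7.13 and 2.86 CPM at d2 and 82, 74.2 and 83.8 CPM at e18.5 (log2 fold change -3.36, adjusted p = 7.62e-06, edgeR). Without d2 library 3, or without e18.5 library 1, the number lower was 3. T, Thy1 and Eomes did not pass (adjusted p = 0.187, 0.102 and 0.121, edgeR). Gdnf itself, made by Sertoli cells, was low and fell to 3.71 ± 1.75 CPM at d2, against 11.2 ± 2.41 CPM at e18.5 (SD, n = 4 and 3).

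Most of the feedback inhibitors that MAP kinase signalling induces also rose. Of 15 genes of FGF receptors and MAP kinase feedback, 11 were higher and 0 lower at d2, with a median log2 fold change of 1.82. Spry4, a Sprouty inhibitor of receptor tyrosine kinase signalling, had 129.5, 141, 137 and 110.1 CPM at d2 and 3.41, 1.16 and 6.28 CPM at e18.5 (log2 fold change 5.19, adjusted p = 1.69e-06, edgeR). Dusp6, the phosphatase that removes phosphate from ERK, had 62.3, 76.5, 69.2 and 43.5 CPM at d2 and 5.08, 3.74 and 6.38 CPM at e18.5. Every d2 library was above every e18.5 library for both genes. Etv4 (log2 fold change 5.01), Dusp5 (2.55), Dusp4 (2.24) and Spred2 (2.18) also rose, as did the receptor genes Fgfr2 (1.82) and Fgfr1 (0.91). Fgfr3, Fgfr4, Spry2 and Etv1 did not pass, with log2 fold changes of 0.77, -0.18, -0.27 and -0.70.

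Immediate early genes, which growth factors, cell stress and tissue dissociation all switch on within minutes, were higher in 16 of 24 and lower in 1, with a median log2 fold change of 1.49. Egr1 had 1156, 1051, 929.9 and 1119.8 CPM at d2 and 62.8, 61.2 and 75.7 CPM at e18.5. Egr2 had 179, 236, 174 and 206 CPM at d2 and 9.87, 10.5 and 5.07 CPM at e18.5, and Egr3 184, 164, 185 and 159.7 CPM at d2 and 7.18, 6.73 and 4.05 CPM at e18.5. The groups were wide apart in all 3 genes, and the log2 fold changes were 4.0, 4.54 and 4.84 (adjusted p = 5.83e-11, 7.38e-09 and 4.08e-10, edgeR). Fos (3.16), Fosb (2.95), Nr4a1 (2.65) and Zfp36 (2.71) rose as well. Klf6 was the 1 member that fell (-0.91), and the heat shock genes Hspa1a and Hspa1b, at 2.20 and 2.33 CPM at d2 and 3.81 and 4.53 CPM at e18.5, did not pass. How long the cells of each age were handled before sorting is not given in the sources used here. Atf3 (log2 fold change 0.97, adjusted p = 0.079, edgeR) and Myc (0.55, adjusted p = 0.169, edgeR) did not pass.

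The 250 bases before the gene start of Egr2 and of Zfp36 are shown because both genes rose and each window holds a CArG box, the site that serum response factor binds in promoters of immediate early genes (in capitals, searched by its consensus on both strands). A CArG box stood in the windows of 2 of 20 members of this list with a sequence, and in 1.81% of the 27025 symbols of the same table, counting 300 bases around the start. The sequences are from RefSeq on build GRCm38.p6, at chr10:67537316-67537565 (plus strand, where the box starts 72 bases before the gene start) and chr7:28379229-28379478 (minus strand, 58 bases before). Egr2 has 5 windows in that table, of which 1 is shown. A match is a description of these letters, not of binding.
Egr2: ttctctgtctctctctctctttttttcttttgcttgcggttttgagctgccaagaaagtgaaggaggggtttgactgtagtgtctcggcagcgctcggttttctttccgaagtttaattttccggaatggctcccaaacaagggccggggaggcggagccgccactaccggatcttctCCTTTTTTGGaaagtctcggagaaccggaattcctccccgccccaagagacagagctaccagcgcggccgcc
Zfp36: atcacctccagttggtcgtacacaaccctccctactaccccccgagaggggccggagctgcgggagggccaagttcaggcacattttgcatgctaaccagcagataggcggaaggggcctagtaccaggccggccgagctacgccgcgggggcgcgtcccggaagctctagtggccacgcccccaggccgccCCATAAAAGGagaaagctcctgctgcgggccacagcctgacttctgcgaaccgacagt

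**Figure D2:**
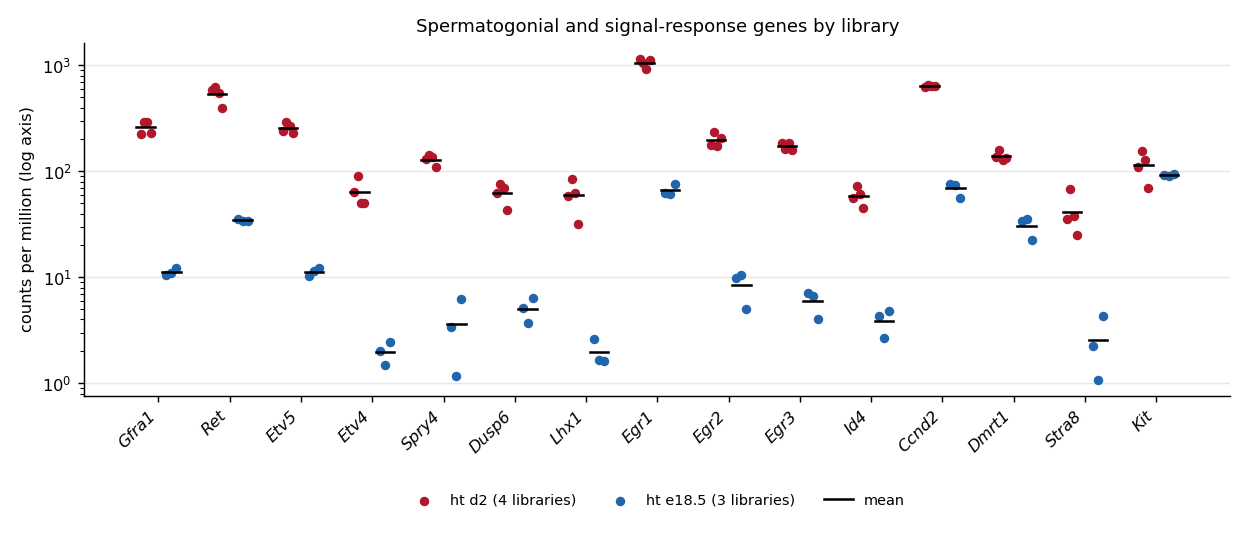
CPM (log axis) of stem cell, signal-response and differentiation genes in each ht library, d2 in red left of e18.5 in blue, with bars at the means. Each gene but Kit has all 4 d2 libraries above all 3 e18.5 libraries, and for Kit, library 4 of d2 is below the e18.5 libraries.

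Genes of the differentiating spermatogonium were higher in 5 of 11 and lower in 1, with a median log2 fold change of 0.97. Stra8, the retinoic acid target gene at the entry to differentiation and meiosis, had 35.3, 68.9, 37.7 and 25.2 CPM at d2 and 2.25, 1.08 and 4.36 CPM at e18.5 (log2 fold change 4.05, adjusted p = 2.08e-05, edgeR). Dmrt1, the transcription factor gene that holds spermatogonia in mitosis, had 138, 161, 129 and 133 CPM at d2 and 33.7, 35.8 and 22.6 CPM at e18.5. Both were higher in every d2 library. Kit, the receptor gene of differentiating spermatogonia, had 110.2, 154, 129 and 70.1 CPM at d2 and 92.6, 91 and 93.5 CPM at e18.5 and did not pass (adjusted p = 0.207, edgeR), and d2 libraries lay on both sides of the e18.5 values. Sohlh2 rose (log2 fold change 2.04), while Sohlh1 did not pass (0.03, adjusted p = 0.933, edgeR). Rarg fell (-1.47), with overlapping groups, and it no longer passed without e18.5 library 2. Without d2 library 4, 2 members of the list were lower. Of 17 retinoic acid pathway genes 4 were higher (1 against a fold of 1.5) and 3 lower (1 lower without e18.5 library 2), among them Cyp26a1, which breaks retinoic acid down (1.91), and Aldh1a2, which makes it (-1.49).

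Genes of replication and mitosis rose almost throughout. Of 36 proliferation genes tested, 32 were higher at d2 (88.9%, beside 24.3% of all genes) and 0 were lower, with a median log2 fold change of 1.68. Mki67, which encodes the proliferation antigen Ki-67, had 1786, 1988, 1873 and 697 CPM at d2 and 133, 139 and 262 CPM at e18.5. Cdc6, which loads the replicative helicase at origins, had 53.2, 84.9, 64.4 and 33.6 CPM at d2 and 3.99, 4.82 and 5.07 CPM at e18.5. The groups did not overlap, and library 4 was the lowest d2 library for both genes. Rrm2, a ribonucleotide reductase subunit, rose with a log2 fold change of 3.71, the helicase subunits Mcm2 to Mcm7 with 1.0 to 2.42, Pcna with 2.06 and the mitotic kinase gene Cdk1 with 2.90. Bub1, Ccnb2, Ccne2 and Cdc20 did not pass, with log2 fold changes of -0.42, 0.75, 0.28 and 0.72. Without d2 library 4 the count was 34 higher and 0 lower.

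Windows of 250 bases before the gene start are shown for Mcm5, Mcm6 and Cdk1, members that rose and that hold the E2F motif TTTNGCGC on either strand (in capitals). E2F factors drive genes of DNA replication in many cell types. The motif stood in the 300 bases around the start of 6 of the 28 proliferation genes with a sequence, Cdk1, Cdt1, Mcm3, Mcm5, Mcm6 and Mcm7, and in 1.57% of all 27025 symbols in the table. Sequences are from RefSeq, build GRCm38.p6: Mcm5 at chr8:75109259-75109508 (plus strand), Mcm6 at chr1:128359706-128359955 (minus strand) and Cdk1 at chr10:69352913-69353162 (minus strand). In Mcm5 a match on each strand overlaps the other, starting 153 and 149 bases before the gene start. In Mcm6 such an overlapping pair starts 110 and 106 bases before the start and a further match 47 bases before, and in Cdk1 the match starts 131 bases before.
Mcm5: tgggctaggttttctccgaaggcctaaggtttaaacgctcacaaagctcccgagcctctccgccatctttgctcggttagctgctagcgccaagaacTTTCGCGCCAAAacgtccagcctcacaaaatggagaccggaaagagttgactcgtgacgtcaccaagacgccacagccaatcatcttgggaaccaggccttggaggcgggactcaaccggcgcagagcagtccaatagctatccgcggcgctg
Mcm6: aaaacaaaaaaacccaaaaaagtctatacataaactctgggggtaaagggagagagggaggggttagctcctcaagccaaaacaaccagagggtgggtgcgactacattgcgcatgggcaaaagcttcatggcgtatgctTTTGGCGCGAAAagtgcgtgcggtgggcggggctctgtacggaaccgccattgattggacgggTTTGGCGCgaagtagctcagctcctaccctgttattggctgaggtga
Cdk1: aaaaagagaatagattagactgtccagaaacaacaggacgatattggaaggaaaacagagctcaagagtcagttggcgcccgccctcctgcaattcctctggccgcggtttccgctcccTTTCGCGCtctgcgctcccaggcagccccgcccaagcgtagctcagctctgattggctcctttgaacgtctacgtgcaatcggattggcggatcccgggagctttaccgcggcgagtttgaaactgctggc

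Regulators of the G1 phase moved in both directions, with 6 of 15 higher and 4 lower (median log2 fold change 0.45). The D-type cyclin genes rose. Ccnd2 had 627, 660.2, 643 and 645 CPM at d2 and 76.6, 74.4 and 55.9 CPM at e18.5, with almost no spread between the d2 libraries. Ccnd1 (log2 fold change 2.75) and Ccnd3 (2.02) rose with it. Cdk6, a kinase partner of the D cyclins, had 49.8, 54.4, 58.5 and 51.2 CPM at d2 and 148, 151 and 136 CPM at e18.5, lower in every d2 library. Among inhibitors, Cdkn1a, which encodes p21, rose (3.84), while Cdkn1b, which encodes p27 (-1.24), Cdkn2c (-1.70) and the pocket protein gene Rb1 (-0.83) fell. Of 24 clustered histone genes that passed the filter on low counts, of 68 in the tables, 12 were higher and 0 lower. A histone gene could pass the filter through d2 alone, so this count is no share of all members. It was 7 without d2 library 1, without d2 library 2 and also against a fold of 1.5. Near-identical copies can share reads, so single members are uncertain.

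**Figure D3:**
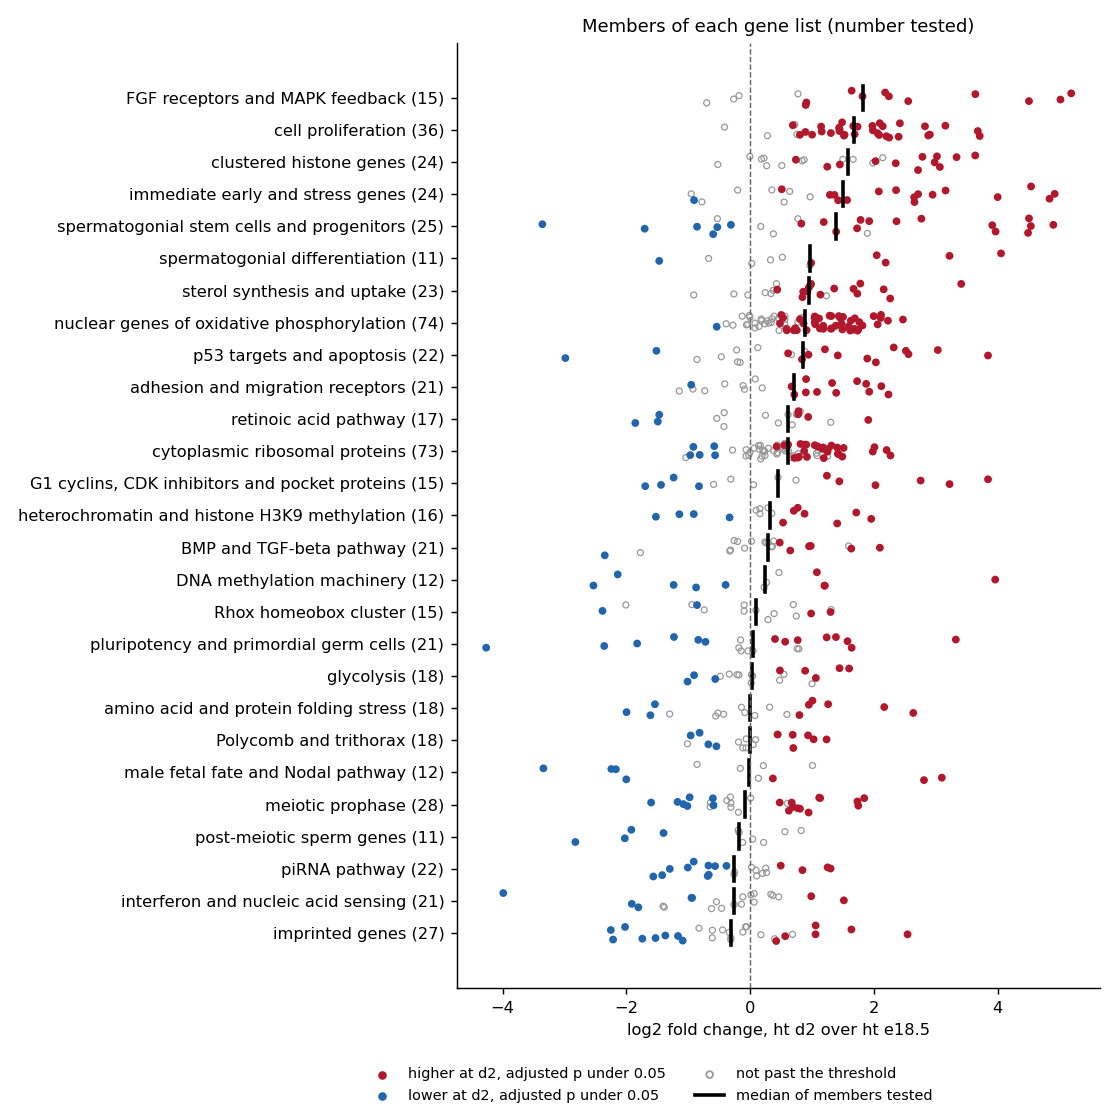
Log2 fold change (d2 over e18.5) of each tested member of 27 gene lists, ordered by the median of the list (black bar). Filled red and blue points passed an adjusted p of 0.05 higher and lower, open points did not. The FGF and MAP kinase, proliferation and immediate early lists have medians of 1.49 to 1.82, and the imprinted, interferon and piRNA lists the lowest. The histone, Rhox and post-meiotic sperm medians cover only the members that passed the filter on low counts, 24 of 68, 15 of 30 and 11 of 16.

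Among DNA methylation genes, Dnmt3l, Dnmt3a and Tet2 fell, and Uhrf1, Dnmt1 and Dnmt3b rose. Dnmt3l, the cofactor that directs methylation in male germ cells, had 20.2, 5.01, 7.61 and 23.2 CPM at d2 and 67.8, 87.1 and 86.6 CPM at e18.5 (log2 fold change -2.53, SE 0.44, adjusted p = 0.000979, edgeR). Dnmt3a, a de novo methyltransferase gene, had 460.1, 456, 550.2 and 669 CPM at d2 and 1362, 1239 and 1174 CPM at e18.5. Each d2 library was below every e18.5 library, with the highest d2 values of both genes in library 4. Tet2, whose product oxidises methylcytosine, had 65.1, 25, 56.7 and 83.6 CPM at d2 and 237, 253 and 269 CPM at e18.5, and Tet3 also fell (-0.87).

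Uhrf1 and Dnmt1 copy methylation after replication, and both rose. Uhrf1, which recruits the maintenance enzyme to hemimethylated DNA, had 179, 303, 209 and 129.9 CPM at d2 and 14, 12.2 and 13.4 CPM at e18.5 (log2 fold change 3.96, SE 0.23, adjusted p = 1.02e-07, edgeR). Dnmt1, the maintenance methyltransferase gene, had 547, 804, 687 and 439.6 CPM at d2 and 310.1, 298 and 272 CPM at e18.5. No d2 library overlapped the e18.5 range in either gene. Hells, a chromatin remodeller gene, rose with a log2 fold change of 1.20. Dnmt3b, a de novo methyltransferase gene, rose too (1.20) and so went the opposite way to Dnmt3a. In all, 4 of 12 members were higher and 5 lower, with a median log2 fold change of 0.24.

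Genes of the piRNA pathway were higher in 4 of 22 and lower in 10, with a median log2 fold change of -0.26 beside -0.02 for all genes. Piwil4, the nuclear PIWI protein of fetal germ cells, had 54.5, 65.8, 80.2 and 42 CPM at d2 and 159, 195 and 184 CPM at e18.5 (log2 fold change -1.56, adjusted p = 1.15e-05, edgeR). Piwil2, the cytoplasmic partner, had 493, 589.8, 497 and 490.2 CPM at d2 and 843, 1002 and 625 CPM at e18.5. All d2 libraries lay below all e18.5 libraries, more narrowly for Piwil2. Mael (-1.30), Tdrd9 (-1.42) and Tdrd1 (-1.01), factors of the germ granules, fell as well. Tex19.1, which restrains retrotransposons in germ cells, had 616, 660.3, 395 and 414 CPM at d2 and 224, 237 and 174 CPM at e18.5. Tex19.1 (1.30), Pnldc1, the piRNA trimming enzyme gene (1.25), Asz1 (0.84) and Tdrd12 (0.49) were the members that rose. Of the 10 decreases, 5 passed a test against a fold of 1.5.

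**Figure D4:**
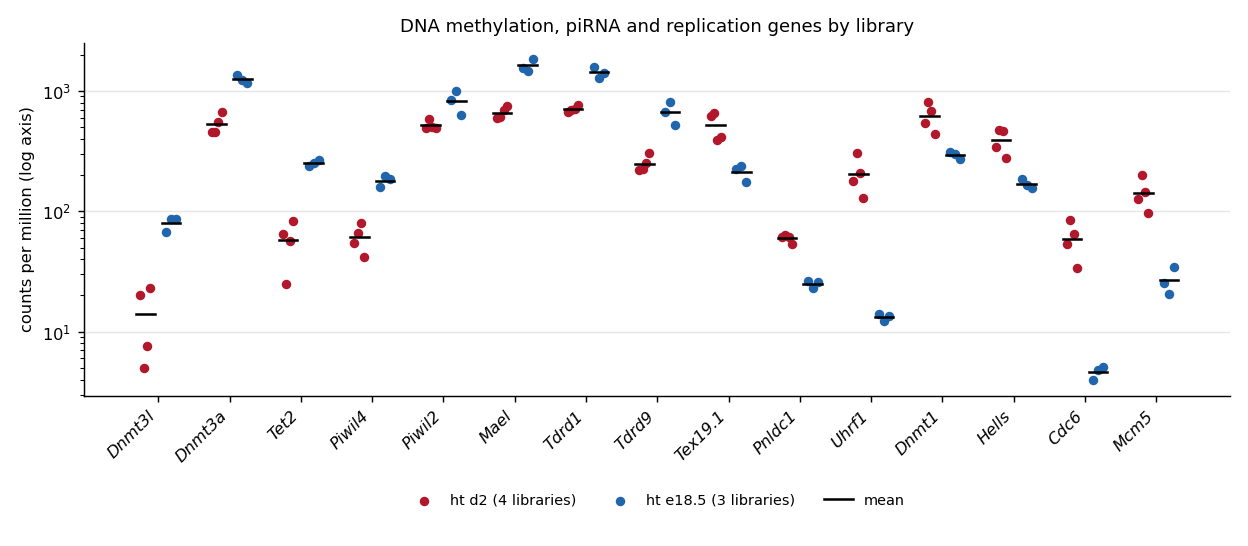
CPM (log axis) of DNA methylation, piRNA and replication genes in each ht library, d2 in red left of e18.5 in blue, with bars at the means. Dnmt3l, Dnmt3a, Tet2 and the piRNA genes from Piwil4 to Tdrd9 are lower in all d2 libraries, and Tex19.1, Pnldc1 and the genes from Uhrf1 to Mcm5 are higher in all of them.

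Histone-based silencing genes were higher in 7 of 16 (3 against a fold of 1.5) and lower in 4 (median log2 fold change 0.32), and the members of 1 complex moved apart. Of the HUSH complex, which spreads methylation of histone H3 lysine 9, Pphln1 rose to 472 ± 46.9 CPM at d2, against 122 ± 6.38 CPM at e18.5 (SD, n = 4 and 3), while Mphosph8 fell to 581 ± 24.9 CPM at d2, against 1284 ± 39.7 CPM at e18.5. Fam208a, its other subunit, did not pass (log2 fold change 0.35, adjusted p = 0.059, edgeR). Ehmt2, the G9a methyltransferase gene, fell (-1.52), and Suv39h1, a methyltransferase of pericentric heterochromatin, rose (1.71). Of 18 Polycomb and trithorax genes, 6 were higher, such as Scmh1 (1.23) and the demethylase gene Kdm6b (1.02), and 4 lower, such as Kmt2b (-0.96) and Eed (-0.68). The counts of this list were 3 higher and 1 lower when tested against a fold of 1.5.

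Signals of the fetal male fate moved apart from each other. Acvr2b, a receptor gene for activin and Nodal, had 9.85, 10.6, 8.82 and 11.3 CPM at d2 and 121, 102 and 86.9 CPM at e18.5 (log2 fold change -3.34, adjusted p = 9e-09, edgeR), with every d2 library under every e18.5 library. The Nodal co-receptor gene Tdgf1 (-2.17), the receptor gene Acvr1c (-2.24) and the inhibitor gene Lefty2 (-2.0) fell with it. Smad3, which carries the signal to the nucleus, had 53.2, 55.5, 56.3 and 42.5 CPM at d2 and 8.2, 4.73 and 9.32 CPM at e18.5 and so rose (2.81). Nanos2, the RNA-binding factor gene of the fetal male fate, did not pass, with 2.78, 1.99, 2.05 and 4.05 CPM at d2 and 4.72, 4.57 and 5.47 CPM at e18.5 (adjusted p = 0.127, edgeR). Nanos3 rose to 3.21 ± 0.961 CPM at d2, against 0.363 ± 0.478 CPM at e18.5 (SD, n = 4 and 3). In all, 3 of 12 were higher and 4 lower. Of 21 genes of the BMP and TGF-beta pathway 6 were higher and 1 lower, and the number higher was 2 without e18.5 library 2 and 3 without e18.5 library 3 and 1 against a fold of 1.5, and the number lower was 2 without d2 library 4.

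Pluripotency and primordial germ cell genes were higher in 8 of 21 (5 against a fold of 1.5) and lower in 6, with a median log2 fold change of 0.05. Nanog, a core pluripotency factor gene, had 0.321, 0.221, 0 and 0.238 CPM at d2 and 4.93, 3.66 and 3.55 CPM at e18.5 (log2 fold change -4.27, adjusted p = 0.000249, edgeR). Utf1, a chromatin factor gene of undifferentiated cells, had 79.6, 98.9, 84.1 and 115 CPM at d2 and 376, 289 and 341 CPM at e18.5. Both were lower in every d2 library. Dppa3 fell (-2.36), while Tcl1 (3.32), Tfap2c (1.64), Sox2 (1.57) and the microRNA-pathway factor gene Trim71 (1.24) rose. Pou5f1, at 7.96 ± 1.72 CPM at d2 and 8.86 ± 1.52 CPM at e18.5 (SD, n = 4 and 3), did not pass (adjusted p = 0.713, edgeR).

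Meiotic genes were already transcribed at both ages and showed no common direction, with 12 of 28 higher, 7 lower and a median log2 fold change of -0.09. Syce2 (1.84), a synaptonemal complex gene, and Mcmdc2 (1.73) rose. Prdm9, which places recombination hotspots, had 14.9, 9.65, 11 and 12.9 CPM at d2 and 33.8, 29.5 and 46.7 CPM at e18.5, all d2 libraries being lower. Hormad1 (-1.17), an axis protein gene, fell too. Of the increases 5, and of the decreases 4, passed a test against a fold of 1.5. Of 11 post-meiotic sperm genes that passed the filter on low counts, of 16 in the tables, 0 were higher and 4 lower. The number lower was 2 without e18.5 library 3. Members such as Akap4 (means of 1.10 CPM at d2 and 8.04 CPM at e18.5) could pass the filter through e18.5 alone. This count is therefore no share of all members.

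Of 74 nuclear genes of oxidative phosphorylation 47 were higher (63.5%, beside 24.3% of all genes) and 1 lower, with a median log2 fold change of 0.89. Cox5a, a complex IV subunit, had 108, 101, 80.4 and 79.8 CPM at d2 and 28.7, 27.3 and 25.5 CPM at e18.5 (log2 fold change 1.76, adjusted p = 2.63e-06, edgeR). All d2 libraries were above all e18.5 libraries for Cox5a. Of 23 sterol genes 15 were higher (65.2%) and 0 lower, with a median of 0.95. Cyp51, an enzyme gene of the synthesis pathway, had 156, 150.1, 163 and 178 CPM at d2 and 35.1, 44.2 and 29.3 CPM at e18.5 (log2 fold change 2.16, adjusted p = 2.36e-07, edgeR), higher in every d2 library, and Lss, of the same pathway, rose too (2.26). Of these 15, 9 passed a test against a fold of 1.5.

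Ribosomal protein genes were higher in 29 of 73 and lower in 5, with a median log2 fold change of 0.61. Their summed level did not rise, at 3916 to 5384 CPM at d2 and 4732 to 5325 CPM at e18.5. The number higher was 19 without d2 library 2, and the number lower was 3 without e18.5 library 1 and also without library 2 of e18.5. Against a fold of 1.5, 11 were higher and 2 lower. Many near-identical pseudogenes can take reads of these genes, so single members such as Rpl41 (2.27) and Rpl4 (-0.97) are uncertain. Glycolysis genes had no common direction, with 5 of 18 higher, among them the hexokinase gene Hk2 (1.60) and the glucose transporter gene Slc2a1 (1.44), and 3 lower, a median log2 fold change of 0.03 and 1 lower without e18.5 library 1 or against a fold of 1.5.

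Among genes of stress and death, 12 of 22 p53 genes were higher and 2 lower (median log2 fold change 0.86). Trp53 itself had 110.4, 135, 116 and 72 CPM at d2 and 26.2, 11.1 and 19.4 CPM at e18.5, higher in every d2 library (log2 fold change 2.52, adjusted p = 1.29e-05, edgeR). Its targets Cdkn1a (3.84) and Pmaip1 (3.03) rose, Fas (-2.99) and Perp (-1.51) fell, and Mdm2, Bbc3 and Ccng1 did not pass (-0.20, -0.86 and -0.16). Interferon and nucleic acid sensing genes were higher in 2 of 21, or 1 without e18.5 library 1 or 2, and lower in 5, with 1 higher and 3 lower against a fold of 1.5. Ddx58, the RNA sensor RIG-I, had 25.1, 15.3, 40 and 53.9 CPM at d2 and 125, 119 and 133 CPM at e18.5. All d2 values of Ddx58 lay below those of e18.5, with library 4 the closest. Of 18 genes of amino acid and folding stress 6 were higher and 3 lower, among them Atf4 (1.26) and its target Asns (-1.61), which moved in opposite directions.

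Imprinted genes, which body cells express from 1 parental copy, were higher in 6 of 27 and lower in 8 (median log2 fold change -0.31). Which copy these germ cells express was not tested. Plagl1 (-1.09), among the 8, overlaps Hymai, a symbol of the e18.5 table alone with 965 counts in ht libraries. H19 had 62.4, 117, 67.3 and 50.1 CPM at d2 and 14.8, 12.1 and 11.2 CPM at e18.5, and its neighbour Igf2 rose as well (1.64). Grb10 had 429.6, 269.9, 411 and 679.7 CPM at d2 and 2299.97, 2034 and 2057 CPM at e18.5. The groups were apart in both genes. Meg3 (-2.22) and Rian (-1.53), noncoding RNAs of 1 cluster, Peg10 (-1.74) and Sgce (-2.02), which share another, fell. Of 21 adhesion and migration receptors, 12 were higher, such as Epcam (1.87), Itgb5 (2.23) and Cdh1 (1.73), and 1 was lower, with 5 lower without d2 library 4 and 2 without e18.5 library 1. Of 15 Rhox genes that passed the filter, of 30 in the tables, 2 were higher and 2 lower, and none of these 4 (Rhox8, Rhox13, Rhox4d and Rhox10) passed without e18.5 library 2 or against a fold of 1.5.

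Outside the lists, large increases beyond those already given included Hs3st3b1 (5.86), Mmp9 (5.21), Smoc2 (4.83) and Tmem59l (4.80). Mmp9, a secreted protease that degrades matrix, had 92.5, 84, 63.4 and 57.6 CPM at d2 and 1.96, 2.66 and 1.32 CPM at e18.5. The decreases below come from called genes with an average log2 CPM of at least 4 and groups that did not overlap. Mia2 and the symbols left out by the naming rule, given under processing, are set aside. The largest decreases reported here were Cd22 (-5.48), Slc34a2 (-4.82), Gucy2f (-4.66), Nccrp1 (-4.46), Apex1 (-4.43) and Ccdc110 (-4.40). Next came Dcc (-4.31), Chl1 (-4.10), Mcf2 (-4.04), Pkhd1l1 (-4.01) and Zan (-3.98). Dcc, the netrin receptor gene best known from axon guidance, had 5.46, 3.17, 10.8 and 21.1 CPM at d2 and 188, 225 and 176 CPM at e18.5, with library 4 the highest of d2. Cd22, a lectin receptor gene known from B cells, had 2.89, 0.516, 0.604 and 4.52 CPM at d2 and 65, 77.3 and 134 CPM at e18.5. Apex1, a DNA repair endonuclease gene of wide expression, had 1.18, 4.05, 2.54 and 2.74 CPM at d2 and 52.2, 59.6 and 62.7 CPM at e18.5. No symbol of 1 table was found to overlap it, and whether its definition differs between the tables was not tested.

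Transposons and other repeats were counted by name beside the genes. They took 48.0% ± 3.51 of all counts at d2 (SD, n = 4) and 58.4% ± 3.08 at e18.5 (SD, n = 3), a difference of -10.4 percentage points. The groups did not overlap, and the two-sided exact permutation test gave p = 0.0571, the smallest value that 4 against 3 libraries allow. On the scale set by the genes, 875 of 1112 repeat names (78.7%) were lower at d2 and 6 (0.54%) higher, 79.2% in all, with a median log2 fold change of -0.75. When the repeats set their own scale by TMM, the median was -0.02 over 1111 names, with 235 lower (21.2%) and 180 higher (16.2%). With their own totals it was -0.12, with 290 lower (26.1%) and 99 higher (8.91%). Of 1106 names fitted on both scales, 476 (43.0%) changed sign with own TMM factors and 335 (30.3%) with own totals, so the counts called depend on the scale. All names of a library share its total of repeats. Both scales are given below.

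Names grouped here as young L1 had negative medians on every scale. The group includes LINE copies that still move in mice, which is not said of every name in it. L1Md_A had 893, 577, 798 and 956 CPM at d2 and 3325, 3684 and 7622 CPM at e18.5 on the scale of the genes. L1Md_F2, the most abundant young L1 name, had 6098, 4306, 5654 and 6766 CPM at d2 and 13007, 16293 and 27501 CPM at e18.5. The lowest e18.5 library was above the highest d2 library for both. The log2 fold change of L1Md_A was -2.60 with the gene scale and -1.84 with own TMM factors (adjusted p = 0.0035, edgeR), and that of L1Md_F2 was -1.73 and -0.97. All 6 young L1 names were lower with the gene scale and with own totals, and 4 with own TMM factors, with medians of -1.90, -1.23 and -1.14. Older L1 names were lower in 98 of 100 with the gene scale, but in 31, with 16 higher, under own TMM factors.

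MusD and ETn retrotransposons, related long terminal repeat elements, fell in 5 of 5 on all 3 scales, with a median of -1.67 with the gene scale and -0.94 with own TMM factors. ETnERV2-int had 775, 605, 835 and 988 CPM at d2 and 2055, 2436 and 3156 CPM at e18.5. Intracisternal A particle (IAP) names were lower in 15 of 16 with the gene scale, and in 10, with 1 higher, under own TMM factors. The exception was IAP-d-int, the most abundant of them, with 1003, 951, 1081 and 1193 CPM at d2 and 850.4, 981 and 1026 CPM at e18.5 (adjusted p = 0.482, edgeR). With own TMM factors IAP-d-int rose (0.89). MERVL and MT2 names, of a retrovirus active in early embryos, were lower in 6 of 7 with the gene scale and in 0, with 1 higher, under own TMM factors. SINE names were lower in 10 of 32 with the gene scale and higher in 30 and 24 under own TMM factors and own totals, where none was lower.

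The satellite GSAT_MM, the major repeat of pericentric heterochromatin, showed the widest gap of all names. It had 18.7, 16.5, 24.2 and 51.4 CPM in d2 libraries and 31302, 14753 and 29249 CPM in e18.5 libraries (log2 fold change -9.83, SE 0.41, adjusted p = 1.57e-07, edgeR). Of 6 satellite names 5 were lower with the gene scale and 3 under own TMM factors. In the separate table of repeat families, where counts were estimated, the Satellite family had 1849, 1574, 1757 and 1811 CPM at d2 and 9805, 5764 and 10249 CPM at e18.5, a log2 fold change of -2.30, so the tables count GSAT_MM reads differently. Of 51 families 39 (76.5%) were lower with the gene scale and 0 higher, among them L1 (-0.99), ERVK (-0.80) and MaLR (-0.66). Under own TMM factors 12 were lower (23.5%) and 6 higher (11.8%), under own totals 10 lower (19.6%) and 6 higher. MaLR was no longer called, at -0.10 with own TMM factors (adjusted p = 0.276, edgeR) and -0.06 with own totals (adjusted p = 0.617, edgeR), nor was ERVL, at -0.12 (adjusted p = 0.0697, edgeR) and -0.08 (adjusted p = 0.423, edgeR). L1 (-0.41 and -0.36) and ERVK (-0.23 and -0.19) remained lower under both. With own TMM factors the SINE families Alu (0.32) and B2 (0.25) had positive log2 fold changes, against -0.24 and -0.32 with the gene scale. In ko cells, which share the gene tables of each age, GSAT_MM had 45.4, 52.6, 55.2 and 70.1 CPM at d2 and 4050, 1120 and 1290 CPM at e18.5, to 3 significant digits. In those cells, too, every d2 library was below every e18.5 library, and their e18.5 values were lower than those of ht cells.

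**Figure D5:**
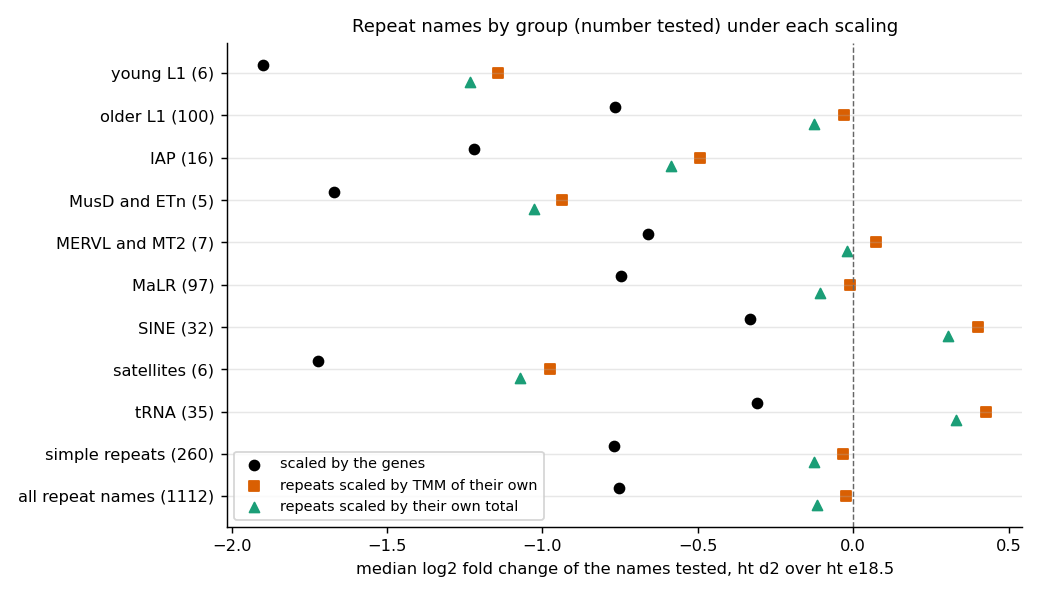
Median log2 fold change (d2 over e18.5) of the tested names of each repeat group under 3 scalings: by the genes (circles), by TMM factors of the repeats (squares) and by the repeat totals (triangles). All group medians except MERVL and MT2, SINE and tRNA stay below 0 under all 3, with older L1 (-0.03), MaLR (-0.01) and simple repeats (-0.03) close to 0 under TMM factors of the repeats. The SINE and tRNA medians are above 0 under both scalings by the repeats.

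The knockout libraries at the same ages stand in the same 2 gene tables, and most calls of ht cells were also made in them. Of the 4135 genes higher in ht cells, 3352 were also called higher at d2 in ko cells and 4 lower. Of the 4267 lower in ht cells, 3362 were called lower in ko cells and 14 higher. In ht cells 24.3% of all genes tested were called higher and 25.0% lower. The share of all genes called in ko cells is not reported here, so how much overlap unrelated calls would give cannot be read from these counts. The change itself differed between the genotypes for 110 of 18288 genes (0.601%) by an interaction test, 28 with a higher value in ht cells (0.153%) and 82 with a lower one (0.448%). Library 2 of ko d2 held 105 CPM of Tex15, against 2.11, 2.57 and 2.68 CPM in the other ko d2 libraries, and without it 239 genes differed. DESeq2 called 385. A gene past the threshold in 1 genotype alone is not thereby different between them.

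The clearest difference was in Samd9l, an interferon-inducible gene. It fell to 4.05 ± 1.65 CPM at d2 in ht cells, against 18.8 ± 4.12 CPM at e18.5, and rose to 81.5 ± 11 CPM at d2 in ko cells, against 24.4 ± 6.26 CPM at e18.5 (SD, n = 4 and 3 for each genotype; adjusted p of the difference = 3.75e-06, edgeR). Abca1, which exports cholesterol, fell in ht cells to 165 ± 7.03 CPM, against 301 ± 11.2 CPM, and rose in ko cells to 235 ± 20.3 CPM, against 152 ± 32.1 CPM at e18.5. Both genes thus moved in opposite directions with age. Atp13a5 had 7.42 ± 1.85 CPM at d2 and 15.3 ± 3.1 CPM at e18.5 in ht cells, and 84 ± 23.3 and 22.7 ± 4.99 CPM in ko cells. Cdh12, a cadherin gene, had 1.89 ± 1.06 and 17.1 ± 10.9 CPM in ht cells at d2 and e18.5, and 109 ± 6.66 and 63.9 ± 1.22 CPM in ko cells. Cyp4a12b was at 0 counts in all ht d2 libraries and at 2.31 ± 0.957 CPM at e18.5, at least 31.0-fold lower against a floor of 3 counts over the group, while ko cells had 22.1 ± 4.44 CPM at d2 and 18.5 ± 2.49 CPM at e18.5. The floor covers counting error only.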

How the data were processed

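RNA was sequenced from sorted germ cells. The authors deposited whole-number read counts of genes and repeat names, in 1 table per age, and expected counts of repeat families, which need not be whole. Per the submitters' processing notes, STAR, featureCounts, edgeR and Bowtie were used with build mm9. Versions, strand and the treatment of multi-mapping reads are not given in the sources used here.

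The tables were joined on row names present at both ages. Genes were tested on the deposited counts with edgeR 4.0.16 (R 4.3.3): TMM factors, filterByExpr (minimum count 10, total 15) and the robust quasi-likelihood test on the 7 ht libraries, p-values being adjusted by Benjamini and Hochberg's method and called under 0.05. Standard errors are on the log2 scale. Repeats used the library sizes and factors of the genes, and expected counts were rounded. The genotype comparison was an interaction over 14 libraries. Alternatives used DESeq2 1.42.0 and limma 3.58.1 (voom), and other steps Python 3.11.15, pandas 2.3.3, scipy 1.17.1 and matplotlib 3.10.9. The test was checked on simulated data. No pair of replicates agreed within sampling noise. The range of depth per library at each age is given in the report.

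Named genes were, per direction, the 12 largest called changes with groups apart and an average log2 CPM reaching 4. Left out of these 12 were symbols of the Gm, Rik, LOC, Mir, Snor, Olfr and Vmn kinds. Symbols at 0 counts in all libraries of 1 of the 2 tables were left out too. Of these, 18 were tested and 18 called, beside 49.3% of all genes, and such a symbol passes the filter through 1 age alone. Also named were up to 3 called members of each list and direction with the smallest p, and Tex15. Named repeats were up to 8 names per direction and the most abundant name of each repeat group. The 5 genes with the smallest p in the interaction were named as well. Other list members were singled out after their values were seen. The members and lists were chosen with earlier results of these data known. Symbols held by 1 table were not analysed here. Some genes that the rule names are not reported here.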

Additional observations from a re-analysis of the deposited data

Results flagged for a closer look

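In 13 of 203 groups of 4 d2 libraries tested (6.4%), 1 library lay apart from the other 3 by Dixon's criterion, and chance alone flags about 5%. Of these, 10 came from library 4, 2 from library 2 and 1 from library 3, and 9 were high and 4 low. In library 4, Ehmt2 had 161 CPM (88.2 to 101 in the others), Acvr1c 5.0 CPM (0.725 to 1.28), Peg10 257 CPM (163 to 178) and Slc7a11 29.8 CPM (5.82 to 7.85). Rhox4d had 1.43 CPM there (0 to 0.214), and the markers of Leydig cells Cyp11a1 2.02 CPM (0.362 to 0.535) and Hsd3b6 0.953 CPM (0 to 0.107) and of stroma Lum 4.88 CPM (0.749 to 1.18) were high as well. Syce2 at 121 CPM (161 to 168) and Mb21d1 at 9.41 CPM (15 to 15.8) were low in library 4. In library 2, Tcl1 had 27.8 CPM (18 to 19.2) and Vldlr 4.35 CPM (8.89 to 9.05), and in library 3 Kdr had 6.04 CPM (9.76 to 10.5).

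The change with age differed between ht and ko cells for 7 of the named genes by the interaction test of edgeR. Over all genes this held for 110 of 18288 (0.601%). The first 5 below were named for their smallest p in this same test, so their passing is no separate result. Cdk6 and Pkhd1l1 were the ones that passed among the 175 genes named by other rules. The log2 differences, ht minus ko, were -3.97 for Samd9l (adjusted p = 3.75e-06), -1.5 for Abca1 (adjusted p = 0.000149), -2.93 for Atp13a5 (adjusted p = 0.000149), -3.98 for Cdh12 (adjusted p = 0.000284) and -7.84 for Cyp4a12b (adjusted p = 0.000149), whose size depends on the prior count because ht d2 cells had 0 counts. Cdk6 fell in both genotypes, by 1.44 in ht cells and by 2.71 in ko cells on the log2 scale, a difference of 1.28 (adjusted p = 0.0234). Pkhd1l1 fell by 4.01 in ht cells and by 1.41 in ko cells, a difference of -2.6 (adjusted p = 0.00476).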

How the results depend on the processing

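Of 175 named genes, 146 kept direction and call under every alternative run, 29 lost the call under at least 1, and 0 reversed. Most of these genes were named for their calls in the main fit, and the alternatives used largely the same libraries. Their keeping the call is therefore no separate result and does not describe all genes called. The number of genes called ranged between 6911 and 9131 when each library was left out in turn, was 8647 with DESeq2 and 4931 when tested against a fold of 1.5. The same range was 722 to 930 for repeat names, 24 to 44 for families and -12.2 to -8.79 percentage points for the share of counts in repeat names. Own TMM factors gave 415 repeat names and 18 families, own totals 389 and 16, since the total of repeats is then removed. Families numbered 24 without e18.5 library 3. With own TMM factors the log2 fold changes of MT2A (0.0175), MTD (0.0401), B3 (0.37), Alu (0.32) and B2 (0.25) reversed, and with own totals those of B3 (0.28), Alu (0.36) and B2 (0.29). The genotype difference was called for 239 genes without ko d2 library 2 and for 385 with DESeq2, and the cause was not tested. Same-numbered libraries of the ages deviated together by r of 0.0205, 0.0132 and 0.0268. Differently numbered libraries were not compared in this way, so these values cannot settle whether the numbers pair libraries. With the replicate block 9005 genes, 883 repeat names, 42 families and 74 genotype differences were called. Depth limits lists of low genes, such as the Rhox and histone genes.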

Other observations

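The direction of change went with the level and the length of a gene. Among the 4 lowest deciles by mean level (log2 CPM under 3.2), 688 genes were called higher and 1815 lower at d2, and in the upper 6 deciles 3447 higher and 2452 lower. Over the 16518 genes with a RefSeq span, Spearman's rho between log2 fold change and span was -0.161, across genes, which are not independent replicates. In the decile of shortest genes (median span 2.56 kb) the median log2 fold change was 0.32, with 430 called higher and 223 lower, and in the longest decile (median 220 kb) it was -0.39, with 274 higher and 661 lower. Ribosomal, oxidative phosphorylation and histone genes are mostly short. The part of level, length or RNA quality in the list counts was not tested.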
